A study of Mus musculus with 8 samples.

Results

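The genes examined here are the clustered replication-dependent histone genes, taken as every entry of the authors' deposited gene table whose single name starts with Hist1h, Hist2h, Hist3h or Hist4h. The rule found 64 members among 23284 gene entries, and it used no measured value. By the histone class in their names, 6 members are H1 genes, 16 are H2A, 18 are H2B, 12 are H3 and 12 are H4. Hist3h2bb-ps, counted under H2B, is annotated as a processed pseudogene in GENCODE vM21. By position, 51 lie in the Hist1 cluster on chromosome 13, 9 in Hist2 on chromosome 3, 3 in Hist3 on chromosome 11 and 1, Hist4h4, on chromosome 6. Another 3 histone entries carry several names each and were left out of the members. Their values are given further on.

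The RNA came from mouse embryonic stem (ES) cells of mixed strain, in 4 groups. Clone 6, called the transgenic clone here, carries a Ctcfl transgene that doxycycline is meant to switch on, and it was grown with 2 µg/ml doxycycline or without it. Clone 7, the non-transgenic clone, has no transgene and was grown with and without the drug in the same way. All cells had been kept on mouse embryonic fibroblast feeders and were replated without feeders for 48 h before RNA was taken. Each genotype is 1 clone, so an effect of the transgene cannot be told apart from other differences between 2 clones. The labels do not name the promoter that drives the transgene. The table holds 1 FPKM value (reads counted per kilobase of a gene's transcript and scaled for library size) for each gene and group, made by the authors from 2 libraries labelled as biological replicates. It therefore gives no SD, and the depth of each library is unknown.

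Replication-dependent histone genes supply the H1, H2A, H2B, H3 and H4 proteins that package newly copied DNA. Their mRNAs are made mainly in S phase, mostly come from genes without introns, and usually end after a conserved stem-loop in place of a poly(A) tail. The stem-loop is bound by Slbp, and the U7 small nuclear ribonucleoprotein guides the cleavage behind it. Some members also have a polyadenylation site downstream of the stem-loop and can give longer, polyadenylated transcripts. Mouse ES cells divide fast and spend much of their cycle in S phase. The labels do not say whether the libraries selected poly(A) RNA, and transcripts that lack a tail are under-counted where they did.

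The 3′ stem-loop is what sets these mRNAs apart, so its core was read from the GENCODE vM21 transcripts of the members. The search was for GGNNNT, any 4 bases and then ANNNCC on the sense strand, which is a stem of 6 base pairs around a loop of 4 bases, with the 3 N bases on each side able to pair. Of the 64 members, 48 had 16 or more annotated bases after the stop codon, and 43 of those held a match, which began 21 to 58 bases after the stop with a median of 31. Within the first 100 bases after the stop codon, 25 of 29 members with a tail that long held the motif (86.2%), against 40 of 20167 other genes (0.198%). The lines that follow show the forms of the core that described members carry, in capitals with 5 flanking bases on either side. The commonest form is given for both Hist3h2ba and Hist1h1c, and every other form for 1 gene.
Hist3h2ba: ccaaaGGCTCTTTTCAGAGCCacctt
Hist1h1c: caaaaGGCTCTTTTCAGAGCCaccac
Hist1h3c: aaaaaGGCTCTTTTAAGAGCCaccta
Hist1h3g: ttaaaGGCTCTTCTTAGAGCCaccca
Hist2h2ac: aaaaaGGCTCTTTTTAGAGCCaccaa
Hist1h4d: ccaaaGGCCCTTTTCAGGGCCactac
Hist1h4i: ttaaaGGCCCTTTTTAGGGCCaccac
Hist1h4b: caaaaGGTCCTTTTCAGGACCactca
Hist1h4a: ccaaaGGCCCTTCTCAGGGCCgccca
The shared core of Hist3h2ba and Hist1h1c was found in 24 members. The core of Hist1h4d was found in 6 members and that of Hist1h3c in another 6. None of the cores printed for H4 genes was among those printed for H1, H2A, H2B and H3 genes. No match was found in the annotated tails of Hist1h1a, Hist1h2bc, Hist1h2br, Hist2h2be and Hist2h3b. The tails annotated for Hist1h1a and Hist2h3b are short, at 48 and 37 bases. Hist1h2bc, the member with the highest FPKM, is annotated with a transcript of 2 exons.

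Many members share promoter motifs as well. RefSeq promoter windows (GRCm38.p6, 250 bases before to 50 after the start) were matched to 57 of the 64 members and searched on both strands. The CCAAT box was present in 49 of 57 windows (86.0%), against 37.9% of all 27025 RefSeq windows. It was in every matched H1, H2A, H2B and H3 window but in 3 of 11 H4 windows. The TATA box, spelled TATAAA, was in 33 of 57 (57.9%), against 14.2% of all windows. The octamer ATTTGCAT, the letters that the factor Pou2f1 is known to bind, was in 13 of 57 (22.8%), against 1.75% of all windows. Its 13 windows were those of 7 H2A and 6 H2B genes. None of the H1, H3 or H4 windows held it. Matches were counted anywhere in a window, also after the start, as with the TATAAA of Hist1h4a. Windows of genes that start close together on opposite strands can overlap, so the same letters can count for both genes. This holds for the octamer of Hist1h2aa and Hist1h2ba, of Hist1h2ae and Hist1h2bg, and of Hist1h2ah and Hist1h2bk. It also holds for the TATAAA of Hist1h2ah and Hist1h2bk and of several other such pairs. The counts are thus of windows and not of separate sites. A match is a run of letters and says nothing of whether a factor is bound there.

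The window between Hist1h2ac and Hist1h2bc is printed because it lies between genes of very unequal level. It lies at chr13:23683910-23684209 (GRCm38.p6, minus strand, the direction of Hist1h2ac), with matches to the CCAAT box, the TATA box and the octamer on either strand in capitals.
Hist1h2ac: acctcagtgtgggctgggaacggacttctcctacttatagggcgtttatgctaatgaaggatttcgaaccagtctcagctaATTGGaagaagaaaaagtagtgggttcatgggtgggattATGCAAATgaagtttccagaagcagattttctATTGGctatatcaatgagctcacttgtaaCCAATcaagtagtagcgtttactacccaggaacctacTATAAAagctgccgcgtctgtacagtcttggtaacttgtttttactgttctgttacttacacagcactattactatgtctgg
Both genes start here head to head, with 250 bases between their annotated starts. Hist1h2bc had a mean of 10.5 FPKM over the 4 groups and Hist1h2ac one of 0.0952 FPKM. The members form 13 such divergent neighbours in the annotation, and their levels were often unequal in either direction. Hist1h2ag averaged 1.96 FPKM beside 0.0733 FPKM for Hist1h2bj, and Hist2h2ac averaged 2.01 FPKM beside 0.204 FPKM for Hist2h2be. Hist1h2bk averaged 1.46 FPKM beside Hist1h2ah, which was listed at 0 in all 4 groups. Hist1h2ae and Hist1h2bg were closer, at 1.14 and 0.808 FPKM.

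The 64 members were low in every group. Their median level, as the mean FPKM of the 4 groups, was 0.477, against 1.35 for all gene entries. Of the 64 members, 9 were listed at 0 in all 4 groups, 39 were above 0 in all 4, 31 reached 1 FPKM in at least 1 group and 10 reached it in every group. Of the members, only Hist1h2bc, Hist3h2ba and Hist1h1c reached 5 FPKM in any group. The members summed to 81.8 FPKM in the transgenic clone with doxycycline and 58.9 FPKM without it. The non-transgenic clone gave 81.9 FPKM with doxycycline and 68.9 FPKM without it. The lowest of these sums was 0.00799% of the FPKM of the whole table in its group and the highest was 0.0113%. The 3 joint entries are not in these values. That of Hist1h2ao and Hist1h2ap had 30.1 to 41.9 FPKM, and that of Hist2h2aa1 and Hist2h2aa2 up to 6.14 FPKM. With all 3 kept in, the sums were 127 and 98.0 FPKM in the transgenic clone with and without doxycycline. In the non-transgenic clone they were 118.0 and 118.3 FPKM.

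**Figure D1:**
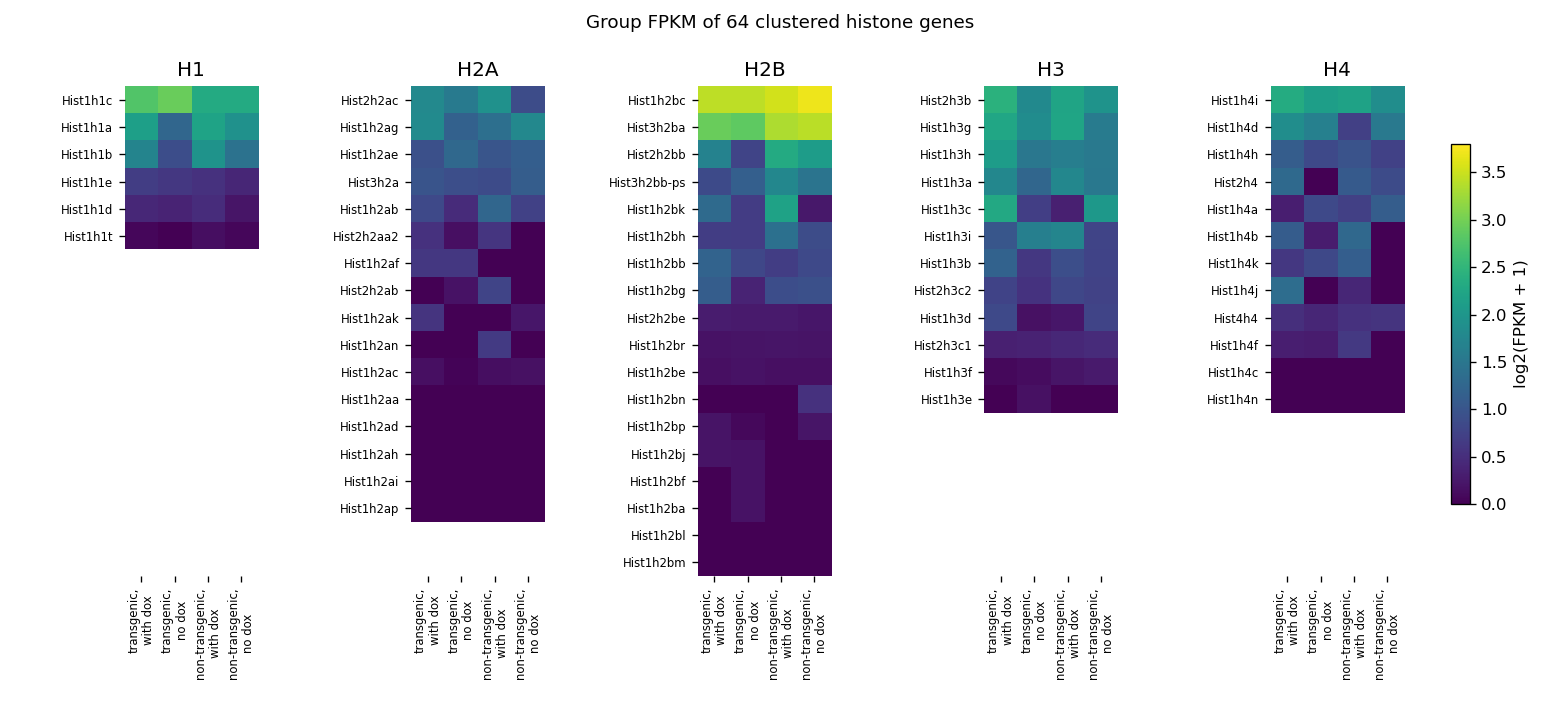
Level of each of the 64 clustered histone genes as log2(FPKM + 1) (colour) in the 4 groups (columns), in 1 panel per histone class with genes in falling order of their mean. Hist1h2bc and Hist3h2ba are the brightest rows, and 9 genes are dark in all 4 groups.

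The H2B gene Hist1h2bc (chr13:23684199-23692480, mm10) was the highest member. It had 9.72 FPKM in the transgenic clone with doxycycline and 9.72 FPKM without, and 10.6 FPKM in the non-transgenic clone with doxycycline and 12.04 FPKM without. Its level differed little with the drug in either clone. Hist3h2ba (chr11:58948911-58949530), an H2B gene outside the large clusters, had 6.66 and 6.22 FPKM in the transgenic clone with and without doxycycline. In the non-transgenic clone it had 9.12 and 9.63 FPKM. Both transgenic values were below both non-transgenic ones. Hist1h1c (chr13:23738807-23740367), a somatic linker histone gene, went the other way. It had 5.79 and 6.62 FPKM in the transgenic clone with and without doxycycline, and 3.99 and 4.01 FPKM in the non-transgenic clone.

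The other 5 of the 8 highest members were in the range of 0.710 to 4.37 FPKM. Hist1h4i (chr13:22040816-22041352), the highest H4 gene, had 4.06 FPKM with and 3.40 FPKM without doxycycline in the transgenic clone, and 3.58 and 2.62 FPKM in the non-transgenic clone. Hist2h3b (chr3:96268694-96269104), the highest H3 gene, had 4.37 and 2.49 FPKM with and without the drug in the transgenic clone, and 3.67 and 2.88 FPKM in the non-transgenic clone. Hist1h3g (chr13:23535418-23535909), also an H3 gene, had 3.77 and 2.59 FPKM in the transgenic clone, and 3.73 and 1.99 FPKM in the non-transgenic clone. All 3 genes had more FPKM with doxycycline in both clones. Hist1h1a (chr13:23763668-23764414), a linker histone gene, had 3.42 and 1.39 FPKM with and without the drug in the transgenic clone, and 3.62 and 2.78 FPKM in the non-transgenic clone. Hist2h2bb (chr3:96269700-96270192), an H2B gene, had 2.21 and 0.710 FPKM in the transgenic clone, and 3.99 and 3.29 FPKM in the non-transgenic clone. For both, the transgenic clone without doxycycline was the lowest of the 4 groups. These 8 genes held 48.9% of the summed FPKM of the members in the transgenic clone with doxycycline, 56.2% without it, 51.7% in the non-transgenic clone with doxycycline and 57.0% without it.

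The remaining linker histone genes were lower. Hist1h1b had 2.27 and 0.861 FPKM with and without doxycycline in the transgenic clone, and 2.86 and 1.70 FPKM in the non-transgenic clone. Hist1h1e lay between 0.326 and 0.621 FPKM and Hist1h1d between 0.155 and 0.399 FPKM over the 4 groups. The testis forms were at or near 0. Hist1h1t, the testis linker histone, did not pass 0.0984 FPKM, Hist1h2ba was listed at 0 in 3 groups and at 0.138 FPKM in the transgenic clone without doxycycline, and Hist1h2aa was listed at 0 in all 4. Hist4h4, the lone member of its cluster, had 0.431 and 0.328 FPKM in the transgenic clone with and without doxycycline and 0.458 and 0.491 FPKM in the non-transgenic clone.

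Replacement histones, which can be made outside S phase, come mostly from genes of another kind, whose mRNAs carry poly(A) tails, and most of those were far higher. H2afz, which encodes the H2A variant that marks promoters and enhancers, averaged 829 FPKM over the groups. H3f3a, a source of replacement H3, averaged 516 FPKM. Of 15 such replacement histone genes in the table, 11 exceeded every clustered member, and the germ cell forms H2afb1 and Hils1 were listed at 0. The joint entry of Hist1h2ao and Hist1h2ap, left out of the members, averaged 35.7 FPKM. That is above H2afy2 (15.5 FPKM), H2afj (16.8 FPKM), H1f0 (22.5 FPKM) and H2afv (30.6 FPKM), which are among those 11. The machinery of histone mRNA was also present. Slbp had 66.6 and 67.1 FPKM in the transgenic clone with and without doxycycline, and 72.5 and 70.3 FPKM in the non-transgenic clone. Npat, the co-activator that cyclin E-Cdk2 phosphorylates at histone gene clusters, had 9.59 and 8.66 FPKM in the transgenic clone and 9.22 and 8.65 FPKM in the non-transgenic clone. Lsm11, a component of the U7 particle, was the lowest of 23 listed transcription and processing genes, averaging 2.46 FPKM.

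**Figure D2:**
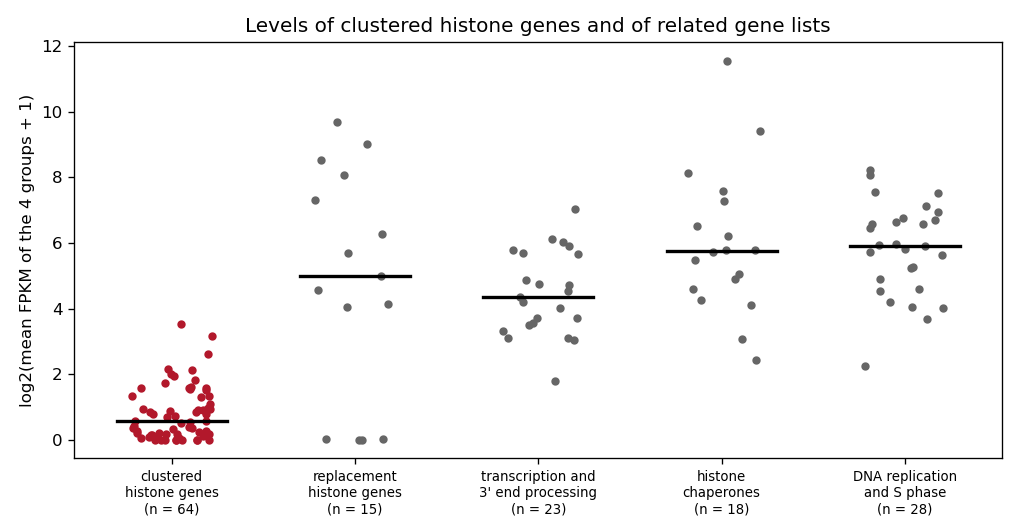
Mean FPKM of the 4 groups, as log2(FPKM + 1), for the clustered histone genes (red) and for 4 lists of related genes (grey), with 1 point per gene and a bar at the median. The highest member, Hist1h2bc at 10.5 FPKM, lies below 11 of the 15 replacement histone genes. Joint entries with several histone names are not shown, and that of Hist1h2ao and Hist1h2ap averaged 35.7 FPKM.

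How far a histone gene can be told from its neighbours bears on each of these values. The coding sequence of each member, or the whole transcript for the pseudogene Hist3h2bb-ps, was cut into words of 75 bases, the read length. Each word was then looked for in every other GENCODE vM21 gene. In 11 members no word was unique, and in 6 members (Hist1h1a, Hist1h1b, Hist1h1t, Hist2h2be, Hist2h4 and Hist4h4) every word was. Hist1h2bc had 4.89% unique words, Hist3h2ba 75.6% and Hist1h1c 82.5%. Hist2h3b and Hist2h2bb, both among the 8 highest, had no unique word. The labels do not say how reads that fit several genes were counted, so the values of members with few unique words are uncertain. Bases outside the coding sequence were not scored. Hist3h2a, with no unique word, has 1700 annotated bases after its stop codon. The joint entry of Hist1h2ao and Hist1h2ap had 36.9 and 34.1 FPKM in the transgenic clone with and without doxycycline and 30.1 and 41.9 FPKM in the non-transgenic clone, above any single member. Hist1h2ap alone was listed at 0 in all 4 groups. The joint entry of Hist2h2aa1 and Hist2h2aa2 had 6.14 and 3.93 FPKM in the transgenic clone, and 3.47 and 4.15 FPKM in the non-transgenic clone. That of Hist1h4m and Hist1h4n had 2.09 and 1.08 FPKM in the transgenic clone, and 2.51 and 3.37 FPKM in the non-transgenic clone. None of the 3 joint entries had q under 0.05 in the authors' deposited table. Between 0% and 1.52% of all tested entries did over the 4 comparisons. No joint entry had an unadjusted p under 0.05 either, against 0.108% to 7.9% of all tested entries. With shares this low, 3 entries without a call say little.

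**Figure D3:**
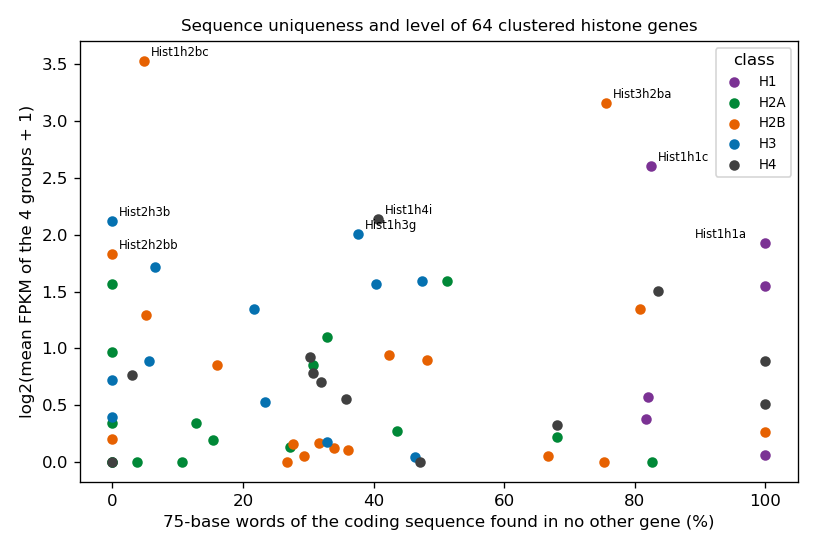
Share of 75-base words of each coding sequence (the transcript for the pseudogene Hist3h2bb-ps) found in no other gene (x axis, percent) against the level of the gene as log2 of its mean FPKM over the 4 groups plus 1 (y axis), with 1 point per member coloured by class and the 8 highest named. The 8 highest span the whole axis, from 0% in Hist2h3b and Hist2h2bb to 100% in Hist1h1a.

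The length of the deposited locus also went with the level. The 30 members with a locus under 420 bases had a median mean level of 0.189 FPKM, and 8 of them were listed at 0 in all 4 groups. The 34 longer ones had a median of 0.883 FPKM, and 1 of them was listed at 0 throughout. At low levels some values were shared exactly by members of equal length. In the transgenic clone with doxycycline the smallest non-zero value of the 8 members of 312 bases was 0.246 FPKM, in both Hist1h4a and Hist1h4f. In the transgenic clone without the drug it was 0.227 FPKM, in both Hist1h4b and Hist1h4f, and the smallest of the 7 members of 381 bases was 0.141 FPKM, in both Hist1h2bf and Hist1h2bj. The smallest value with the drug was 1.09 times that without it at both of these lengths, and 3.74 and 6.50 times at 393 and 411 bases. Hist1h2be and Hist1h1e share 1 deposited locus of 38889 bases, so their values are uncertain for that reason too.

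The groups were also checked against their labels. Ctcfl itself had 0.995 and 0.403 FPKM in the transgenic clone with and without doxycycline and 0.498 and 0.513 FPKM in the non-transgenic clone. In the authors' deposited table its difference with the drug in the transgenic clone was 1.30 on the log2 scale, with p = 0.0062 and q = 0.296, so it was not called. All 8 ES cell markers listed were present in every group, but they were not alike in the clones. In the authors' deposited table Nanog and Zfp42 were called higher and Sox2 lower in the transgenic clone, both with and without doxycycline. Of all tested entries, 1.52% were called between the clones with doxycycline and 1.37% without it. Zfp42, a marker of naive ES cells, had 88.3 and 58.8 FPKM in the transgenic clone with and without the drug, and 20.1 and 18.9 FPKM in the non-transgenic clone. With doxycycline against without it, 5 of 8 were higher in the transgenic clone (median 0.25 on the log2(FPKM + 1) scale). In the authors' deposited table none was called there, and 3 (Zfp42, Esrrb and Nanog) had an unadjusted p under 0.05, against 1.08% of all tested entries. In the non-transgenic clone 7 of 8 were higher with the drug (median 0.15). None was called there and none had an unadjusted p under 0.05, against 0.108% of all tested entries. All 12 feeder fibroblast markers were above 0 in every group, and they summed to 747 and 697 FPKM in the transgenic clone with and without doxycycline, against 490 and 481 FPKM in the non-transgenic clone. Most of that gap lay in Tagln, Acta2, Col1a1 and S100a4, which together had 661 and 605 FPKM in the transgenic clone with and without the drug, and 406 and 400 FPKM in the non-transgenic clone. The other 8 summed to 85.5 and 92.05 FPKM in the transgenic clone, and 84.5 and 81.3 FPKM in the non-transgenic clone. Between the clones the median of the 11 markers at 1 FPKM or more in a group was 0.10 with doxycycline and 0.35 without it. Of all 12 markers, 9 were higher in the transgenic clone with doxycycline and 10 without it. Lum was the lowest of them, at 0.314 to 0.506 FPKM. Among them Tagln and, with doxycycline, Acta2 were called higher in the transgenic clone at q under 0.05 in the authors' deposited table. The part of feeder cells or of the state of the ES cells in the histone values was not tested. In bulk RNA, fewer cells of a type and less RNA per cell cannot be told apart.

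With doxycycline against without it in the transgenic clone, more histone genes were higher than lower, but none passed the authors' test. The summed FPKM was 81.8 with the drug and 58.9 without it, a ratio of 1.39 (log2 0.47). With the 3 joint entries kept in, the sums were 127 FPKM with the drug and 98.0 FPKM without it, a ratio of 1.29. Over all 64 members, 38 were higher with doxycycline, 15 lower and 11 equal, against 9226 higher and 9442 lower of all 23284 entries. With the drug 24 members reached 1 FPKM and without it 15 did. Of the 19 members with a mean of 1 FPKM or more over the 4 groups, 15 were higher and 4 lower (78.9% higher, against 50.2% of 12156 such entries of the whole table). Their median difference was 0.41 on the log2(FPKM + 1) scale, with quartiles at 0.04 and 0.64. The same over all those entries was 0.00051, with quartiles at -0.07 and 0.09. Over the 3 members that reach 5 FPKM in any group the median was 0.00027. Among the 16 members whose mean lay between 1 and 5 FPKM, 13 were higher and the median was 0.54, against 51.6% higher and a median of 0.0061 in 3492 other entries of that level.

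The authors' test, in their deposited table, called none of the 17 members it tested at q under 0.05, where it called 0.108% of all tested entries (0.138% at q under 0.1, again with 0 members). At an unadjusted p under 0.05 it had 1 member, against 1.08% of all tested entries. That member was Hist1h1a, with 3.42 FPKM with and 1.39 FPKM without doxycycline, which is 2.46 times as much (log2 ratio 1.30). Its p was 0.0338 and its q 0.794 in the authors' deposited table. The authors' deposited table gives no test for the other 47 members, of which 44 are marked NOTEST and 3 LOWDATA.

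By class, the H3 genes summed to 21.8 FPKM with doxycycline and 12.7 FPKM without it, a ratio of 1.72, and 8 of the 12 were higher. Hist1h3c accounted for 3.91 FPKM of the sum with the drug and 0.629 FPKM of that without it, the largest difference of any member at 1.59 on the log2(FPKM + 1) scale. Without Hist1h3c the H3 sums were 17.9 FPKM with and 12.1 FPKM without the drug, a ratio of 1.49. The p of Hist1h3c was 0.0505 and its q 0.967 in the authors' deposited table. The H4 genes summed to 13.5 FPKM with and 8.71 FPKM without the drug, a ratio of 1.55. Among them Hist2h4 had 1.46 FPKM with doxycycline and was listed at 0 without it, as was Hist1h4j with 1.55 FPKM with the drug. Hist1h4b had 1.14 FPKM with doxycycline and 0.227 FPKM, the smallest non-zero value at its length, without it.

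The H2A sum was 9.24 FPKM with doxycycline and 6.75 FPKM without it, and the H1 sum was 12.5 FPKM with and 9.71 FPKM without it. With the joint entries, which hold most of the H2A signal, the H2A sum was 52.2 FPKM with and 44.8 FPKM without the drug, a ratio of 1.17. The H2B sum was 24.8 FPKM with and 21.1 FPKM without it, a ratio of 1.17. The largest H2B member, Hist1h2bc, differed by 0.00027 on the log2(FPKM + 1) scale. The members with the largest differences in the other direction were Hist1h3i, Hist1h4a and Hist1h2ae. Hist1h3i, an H3 gene, had 1.03 FPKM with and 2.11 FPKM without doxycycline. Hist1h4a had 0.246 FPKM with the drug, again the smallest at its length, and 0.795 FPKM without it. Hist1h2ae, an H2A gene, had 0.908 FPKM with and 1.44 FPKM without it. In the authors' deposited table the p was 0.258 for Hist1h3i and 0.329 for Hist1h2ae, and Hist1h4a was not tested.

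**Figure D4:**
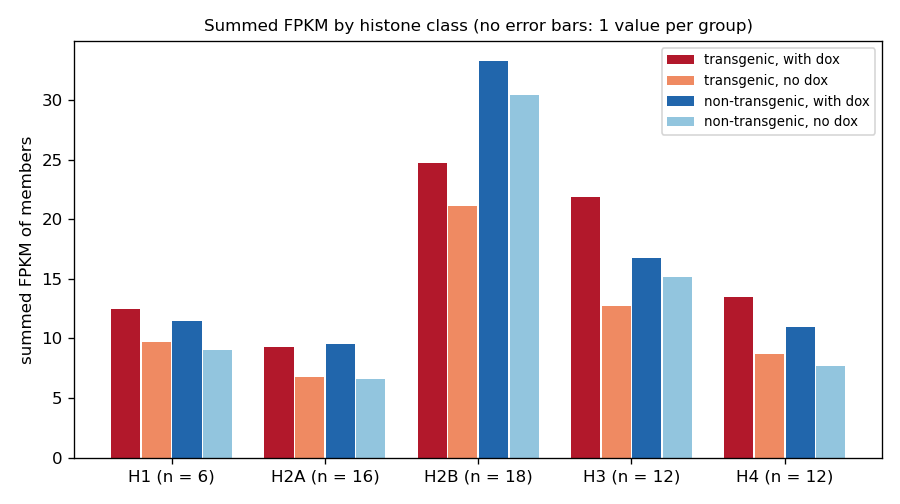
Summed FPKM of the members of each histone class (bars from 0), in the 4 groups, with 1 value per group and no error bars. The H3 bar of the transgenic clone is 21.8 FPKM with doxycycline and 12.7 FPKM without it, and the H2B bars of the transgenic clone lie below both H2B bars of the non-transgenic clone.

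Doxycycline was also given to the clone without the transgene, which shows what the drug goes with when no transgene is present. The members summed to 81.9 FPKM with the drug and 68.9 FPKM without it (ratio 1.19, log2 0.25). With the 3 joint entries kept in, this difference was gone, at 118.0 FPKM with and 118.3 FPKM without the drug (log2 ratio -0.0038). Over all 64 members, 31 were higher with doxycycline, 19 lower and 14 equal, against 10202 higher and 8258 lower of all entries. Of the 19 members with a mean of 1 FPKM or more, 12 were higher and 7 lower (63.2% higher, against 57.8% of all such entries). Their median difference was 0.23 on the log2(FPKM + 1) scale, against 0.02 over all such entries, and it was -0.07 over the 3 members that reach 5 FPKM. In the authors' deposited table none of 18 tested members had q under 0.05, where the test called 0% of all tested entries. None had an unadjusted p under 0.05 either, against 0.108% of all tested entries. The smallest p was that of Hist1h1d, 0.0659, at 0.399 FPKM with and 0.155 FPKM without doxycycline.

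Single members differed widely here. Hist1h2bk, an H2B gene with 5.21% unique words, had 3.56 FPKM with doxycycline and 0.182 FPKM, the smallest non-zero value at its length, without it. Hist1h4b had 1.44 FPKM with the drug and Hist1h4k 1.20 FPKM, and both were listed at 0 without it. Hist2h2ac, the highest H2A member by mean, had 2.78 FPKM with the drug and 0.838 FPKM without it. Hist1h3c differed in the other direction. It had 0.259 FPKM with and 3.06 FPKM without the drug, and Hist1h4d had 0.655 FPKM with and 1.89 FPKM without it. Hist1h2bk had p = 0.258 and Hist1h3c p = 0.137 in the authors' deposited table, each with q = 0.9996.

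Whether the drug's effect differed between the clones was tested for each gene from the deposited ratios. With a standard error taken from the deposited test statistic, 1 of 15 members passed an adjusted p of 0.05 (normal test, Benjamini-Hochberg over 12638 genes), where 0.142% of all genes did. This was Hist1h3c, whose log2 ratio was 2.64 in the transgenic clone and -3.56 in the non-transgenic clone. The difference was 6.20 with a standard error of 1.26, and the adjusted p was 0.000759, an approximation made from the statistics of the authors' deposited table. With a standard error taken from the deposited p-value in place of the statistic, its adjusted p was 0.999994, and no member or other gene passed (0% of 12638). The call thus rests on the choice of error. Hist1h3i went the opposite way, with a difference of -2.73 and an adjusted p of 0.0976 by the same approximation from the authors' deposited table. The coding sequence of Hist1h3c has 40.4% unique words and that of Hist1h3i 21.7%.

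**Figure D5:**
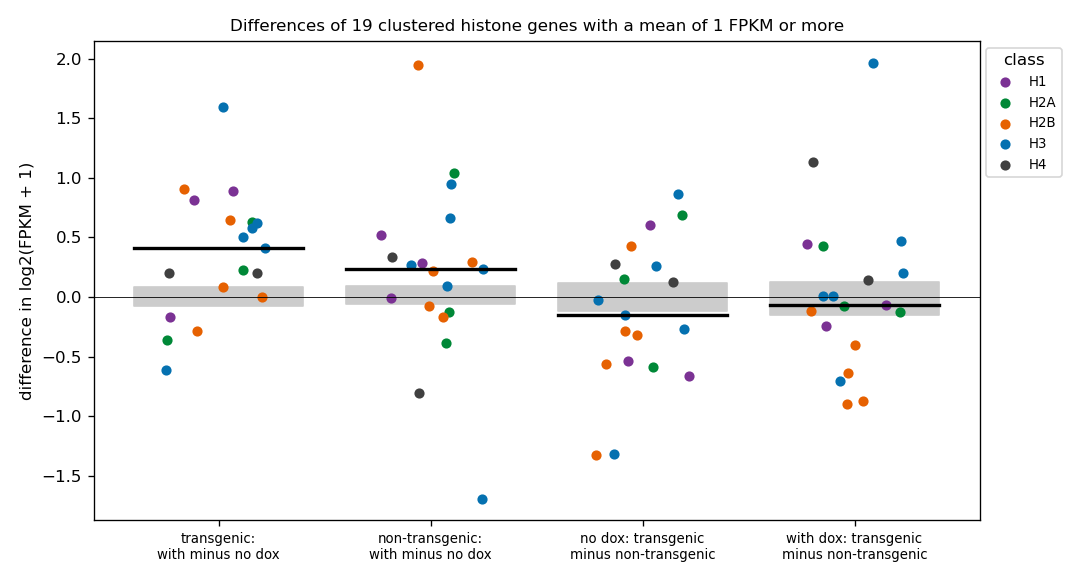
Difference in log2(FPKM + 1) in each of the 4 comparisons (x axis) for the 19 members with a mean of 1 FPKM or more over the 4 groups, with 1 point per gene coloured by class. Black bars mark the member medians (0.41, 0.23, -0.15 and -0.06) and grey boxes the quartiles of all entries at that level.

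Between the clones without doxycycline, the summed histone FPKM was slightly lower in the transgenic clone, but not in every class. The members summed to 58.9 FPKM in the transgenic clone and 68.9 FPKM in the non-transgenic clone (log2 ratio -0.22). With the joint entries the sums were 98.0 FPKM in the transgenic and 118.3 FPKM in the non-transgenic clone (log2 ratio -0.27). By class, the member sums of H2B (ratio 0.69) and H3 (0.84) were lower in the transgenic clone. Those of H1 (1.08), H2A (1.02) and H4 (1.14) were higher. With the joint entries the H2A ratio was 0.85 and the H4 ratio 0.89. Over all 64 members, 24 were higher in the transgenic clone, 29 lower and 11 equal. Of the 19 members with a mean of 1 FPKM or more, 8 were higher and 11 lower in the transgenic clone. Their median difference was -0.15 on the log2(FPKM + 1) scale, against -0.0014 over all such entries. Of 15 tested members in the authors' deposited table, 0 had q under 0.05, where the test called 1.37% of all tested entries (1.72% at q under 0.1, and 1.51% with p adjusted within this comparison, again with 0 members). At an unadjusted p under 0.05 it had 1 member, against 6.59% of all tested entries. That was Hist2h2bb, with 0.710 FPKM in the transgenic clone and 3.29 FPKM in the non-transgenic clone (log2 ratio -2.21). Its p was 0.0366 and its q 0.828 in the authors' deposited table, and none of its words is unique. Hist1h1c had 6.62 FPKM in the transgenic clone and 4.01 FPKM in the non-transgenic clone, with p = 0.058 and q = 0.9996 in the authors' deposited table. Hist1h3i had 2.11 FPKM in the transgenic and 0.711 FPKM in the non-transgenic clone, and Hist2h2ac 1.96 and 0.838 FPKM. Hist1h3c had 0.629 FPKM in the transgenic and 3.06 FPKM in the non-transgenic clone.

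With doxycycline in both clones the sums were nearly equal, at 81.8 FPKM in the transgenic clone and 81.9 FPKM in the non-transgenic clone. With the joint entries they were 127 FPKM in the transgenic and 118.0 FPKM in the non-transgenic clone (log2 ratio 0.11). Over all 64 members, 25 were higher in the transgenic clone, 26 lower and 13 equal. Of the 19 members with a mean of 1 FPKM or more, 9 were higher and 10 lower, with a median difference of -0.06 on the log2(FPKM + 1) scale. Of 20 tested members in the authors' deposited table, 0 had q under 0.05, where the test called 1.52% of all tested entries (1.9% at q under 0.1, and 1.71% with p adjusted within this comparison, again with 0 members). No member had an unadjusted p under 0.05, against 7.9% of all tested entries. The largest differences were those of Hist1h3c, with 3.91 FPKM in the transgenic clone and 0.259 FPKM in the non-transgenic clone, and Hist1h4d, with 2.63 FPKM in the transgenic and 0.655 FPKM in the non-transgenic clone. In the other direction, the pseudogene Hist3h2bb-ps had 0.812 FPKM in the transgenic clone and 2.37 FPKM in the non-transgenic clone. Hist1h2bk had 1.49 FPKM in the transgenic and 3.56 FPKM in the non-transgenic clone, and Hist1h2bh, an H2B gene, 0.610 FPKM in the transgenic and 1.66 FPKM in the non-transgenic clone.

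By class, the H2B genes summed to 21.1 FPKM in the transgenic clone and 30.5 FPKM in the non-transgenic clone without doxycycline, and 7 of the 18 were higher in the transgenic clone, 9 lower and 2 equal. With doxycycline the sums were 24.8 FPKM in the transgenic and 33.3 FPKM in the non-transgenic clone, with 6 higher, 7 lower and 5 equal. Hist3 genes, which include Hist3h2ba, summed to 8.31 FPKM in the transgenic and 12.6 FPKM in the non-transgenic clone without the drug, and to 8.45 and 12.3 FPKM with it. The H1 genes summed to 9.71 FPKM in the transgenic and 9.01 FPKM in the non-transgenic clone without the drug, and to 12.5 and 11.4 FPKM with it. Hist1h1c alone turned these sums. Without it they were 3.08 FPKM in the transgenic and 5.01 FPKM in the non-transgenic clone without the drug, and 6.70 and 7.43 FPKM with it. Of the 6 H1 genes, 3 were higher and 3 lower in the transgenic clone without the drug, and 2 higher and 4 lower with it. No test of a class was made. The ES cell markers Nanog, Zfp42 and Sox2 and the summed feeder markers also differed between the clones, as given above, and their part in these values was not tested. The drug comparisons and the clone comparisons share libraries, so they are not independent of each other.

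Related genes passed the authors' test in none of the 4 comparisons. None of 23 genes of histone transcription and 3′ end processing, 18 histone chaperone genes, 11 tested of 15 replacement histone genes and 28 DNA replication genes had q under 0.05 in the authors' deposited table. The share of all tested entries called there ran between 0% and 1.52% over the 4 comparisons. At an unadjusted p under 0.05 it held 1 replacement histone gene between the clones without the drug and 1 DNA replication gene between the clones with it, and no other of these genes in any comparison. The same share over all tested entries was 6.59% between the clones without the drug and 7.9% with it. For doxycycline in the transgenic clone, where the 19 histone members above had a median of 0.41, the list medians on the log2(FPKM + 1) scale were -0.03 for transcription and processing, -0.08 for chaperones, -0.03 for replacement histones and -0.06 for DNA replication. Of the DNA replication genes, 5 were higher and 23 lower with the drug there. Pcna, the replication clamp, had 275 and 284 FPKM in the transgenic clone with and without the drug, and 324 and 322 FPKM in the non-transgenic clone. Mcm7, a subunit of the replicative helicase, had 271 and 264 FPKM in the transgenic clone and 270 and 270 FPKM in the non-transgenic clone. In the non-transgenic clone the list medians were 0.04 for transcription and processing, 0.03 for chaperones, 0.01 for replacement histones and -0.0034 for DNA replication. The ES cell markers, given above, had medians of 0.25 in the transgenic clone and 0.15 in the non-transgenic clone.

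The pattern of the summed members over the 4 groups was compared with that of 6082 other genes at 10 FPKM or more in every group. The distance was taken between log2 levels centred on each gene's own mean, over 4 group values, so likeness rests on few points. The nearest genes were Snord104, Peg10, Fabp3, Cep55 and Egr1. The member sums used here leave out the joint entries. With those, the sums were 127 and 98.0 FPKM in the transgenic clone with and without doxycycline, and 118.0 and 118.3 FPKM in the non-transgenic clone. That pattern has no rise with the drug in the non-transgenic clone, and no likeness to it was computed. Snord104, a small nucleolar RNA gene, had 3836 and 2671 FPKM in the transgenic clone with and without doxycycline, and 3905 and 3106 FPKM in the non-transgenic clone (distance 0.0671). Peg10, an imprinted gene, had 76.5 and 55.0 FPKM in the transgenic clone and 72.7 and 64.6 FPKM in the non-transgenic clone (distance 0.0675).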

How the data were processed

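Total RNA of 8 libraries was sequenced as 75-base single-end reads, per the labels' protocols. TopHat2 2.0.8, Cufflinks 2.1.1 and the build mm10 are named per the submitters' processing notes. The authors deposited group expression as FPKM, a test statistic (a score) and a p-value and q-value for each gene in 6 pairwise comparisons, of which 4 were used. Here q under 0.05 was counted as a call. The deposited fold column holds text for genes at 0, so ratios were computed from the FPKM, as log2 or as log2(FPKM + 1). Medians over members were planned for those at 1 FPKM or more in any group, but 5 members reach it in the transgenic clone with doxycycline alone and so had to be higher there. Another 3 reach it only in the non-transgenic clone with the drug and 2 only in the non-transgenic clone without it. Those had to be higher in these groups. The text gives medians for members with a mean of 1 FPKM or more over the 4 groups, chosen after seeing the data, beside counts over all 64. A mean can also be carried by 1 high group. Hist1h2bk, with a mean of 1.46 FPKM, had 3.56 FPKM in the non-transgenic clone with the drug. No library value was used, so precision between replicates is known only through the authors' test. The difference between the drug responses was tested with a two-sided normal test per gene, Benjamini-Hochberg over all genes. The calculation was run on simulated ratios drawn with the errors from the test statistic, with p-values made from the same statistic. The simulation did not cover a disagreement between statistic and p-value, which Hist1h3c has. It says nothing of whether that call holds. Stem-loops and 75-base words come from GENCODE vM21 transcripts and promoter windows from RefSeq (GRCm38.p6). The deposited loci of 63 of 64 members overlap the vM21 gene of that name. Coordinates are those of the deposited table unless a build is named. Members and gene lists were chosen with earlier results of these data known. Members named with values are the 8 highest, the top of each class and cluster, all H1 genes, testis forms, Hist2h2be, and the 3 largest differences in each direction of each comparison. The last were picked among members at 1 FPKM or more in a group. Hist1h4j reached that only in the transgenic clone with doxycycline, and Hist1h4k and Hist1h2bh only in the non-transgenic clone with it. Hist1h4a reached it only in the non-transgenic clone without the drug. In comparisons with that group, the direction of these genes was set by the minimum. Other members are named for neighbours, sequence or value steps and were chosen after their values were seen. Alternatives were another pseudocount, FPKM minimum, threshold, set of entries, member left out and error. Python 3.11.15, pandas 2.3.3, numpy 2.4.6, scipy 1.17.1 and matplotlib 3.10.9 were used.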

Additional observations from a re-analysis of the deposited data

Results flagged for a closer look

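Hist1h3c was flagged for unlike responses to doxycycline in the clones, a call that rests on the choice of error. Its log2 ratio with against without the drug was 6.2 higher in the transgenic clone than in the non-transgenic clone, from 3.91 and 0.629 FPKM in the transgenic clone and 0.259 and 3.06 FPKM in the non-transgenic clone. The test of the difference itself gave an adjusted p of 0.000759 (normal test, Benjamini-Hochberg) with errors from the deposited test statistic, and 0.999994 with errors from the deposited p-value. Levels below 1 FPKM enter both ratios, and 40.4% of its 75-base words are unique.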

How the results depend on the processing

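The count of members called by the authors' test was 0 in each of the 4 comparisons, also at q under 0.1 and with p adjusted within each comparison. Few entries of any kind were called, at most 1.52% at q under 0.05, 1.9% at q under 0.1 and 1.71% with adjustment within a comparison. That last setting called 0% of all tested entries for the drug in either clone, so 0 members was fixed there. The median difference of the members at 1 FPKM in any group depended on the scale and the minimum. Members that reach this minimum in 1 group alone had to be higher in that group, so these medians are partly set by the minimum. For doxycycline in the transgenic clone the median was 0.40, and 0.41 with a minimum on the mean. It became 0.73 with a pseudocount of 0.1, 0.00027 over the 3 members that reach 5 FPKM in a group and 0.056 with no minimum. For doxycycline in the non-transgenic clone it was 0.23, and 0.34, -0.072 and 0 under those settings. For the clones without the drug it was -0.15, and -0.31, -0.28 and 0, and for the clones with the drug it was 0.01, and -0.12 over the 3 members at 5 FPKM. The log2 ratio of summed FPKM for doxycycline in the transgenic clone was 0.47, and 0.32 over members with a test. Keeping in the entries with several names, an alternative chosen after seeing the data, gave 0.37 there, -0.0038 in place of 0.25 for doxycycline in the non-transgenic clone, and 0.11 in place of -0.0014 for the clones with the drug. Class sums, taken with other entries after seeing the data, also turned. With the joint entries the H2A log2 ratio became -0.29 for doxycycline in the non-transgenic clone, -0.23 for the clones without the drug and 0.28 for the clones with it, and the H4 ratio became -0.17 for the clones without the drug. Without Hist1h1c the H1 ratio became -0.70 for the clones without the drug and -0.15 with it, and without Hist1h3c the H3 ratio became 0.0011 for the clones without the drug. The difference between the drug responses had 1 member called, and 0 with errors from the p-value, where Hist1h3c lost its call. The cause of these shifts was not tested. Of 219 results for single members, 218 kept their direction and their side of the threshold. A change of pseudocount cannot turn the direction of a single member, and the authors' test called no member. This count was therefore nearly fixed in advance and does not show that the single values are reliable.

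No paired analysis was possible because the table holds no value per library, and for the same reason no library was left out. The library titles place 1 library of each group in each of 2 sets named alike in all groups, and the table gives 1 value over both sets. Depth is unknown, and the smallest values are shared exactly by some members of equal length. Reads from the coding sequence of members with few unique words can fit other genes too.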
